A study of Rattus norvegicus with 12 samples.

Results

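The comparison described here set pancreatic islets of 2-week-old Sprague Dawley rats with intrauterine growth restriction (IUGR) against islets of control rats of the same age. Its members were the 6 libraries whose labels give an age of 2 weeks, 3 control and 3 IUGR, out of 12 libraries in the series. The other 6 were control and IUGR islets at 10 weeks. IUGR was produced by tying off both uterine arteries of the dam at embryonic day 18, and control litters were culled to 8 pups. Dams and offspring ate standard chow. Islets were freed with collagenase perfused through the duct and collected on a Histopaque gradient. No transgene or drug was involved, the labels call the samples biological replicates without saying whether islets of several pups or litters were pooled, and the sex of the pups is not given. P-values therefore measure the spread between these libraries, which may not cover the spread between litters.

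Tying the uterine arteries late in gestation lowers the supply of oxygen and nutrients to the fetus and is a standard rat model of placental insufficiency. Growth-restricted rats of this model are known for impaired insulin secretion and for diabetes later in life. An islet holds insulin-producing beta cells with alpha, delta and PP cells, and also vessels, nerve fibres, pericytes and fibroblasts, while acinar cells, which make digestive enzymes, surround it and come along when digestion is incomplete. In bulk RNA, fewer cells of a type cannot be told apart from less RNA per cell.

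Acinar RNA differed between the groups, and every result below has to be read beside it. Transcripts of 38 acinar genes took 42.4%, 22.7% and 21.8% of all counts in control replicates 1 to 3 and 6.39%, 4.40% and 9.42% in IUGR replicates 1 to 3. The groups did not overlap. Controls averaged 29.0% ± 11.7 and IUGR islets 6.74% ± 2.53 (SD, n = 3 each), with a two-sided exact permutation p of 0.1, the smallest that 3 against 3 libraries allow. The insulin genes Ins1 and Ins2 held 1.57%, 2.60% and 4.09% of counts in the controls and 4.41%, 4.40% and 4.82% in the IUGR libraries. Libraries held between 44.0 and 51.2 M counts (M, mega), so counting error was small next to these gaps. Factors for scaling, by the trimmed mean of M-values (TMM), were 0.771, 1.15 and 1.15 in controls and 1.38, 1.40 and 1.36 in IUGR libraries, and so moved with the acinar share. Levels below are CPM, counts brought to a common library total, after this scaling (scaled CPM), and they compare libraries for a gene, not genes with each other.

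**Figure D1:**
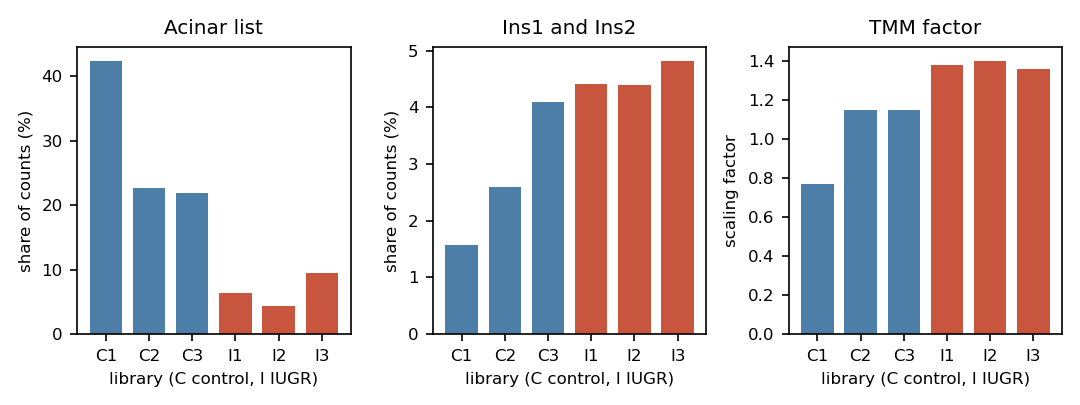
Bars show, for control (C) and IUGR (I) replicates 1 to 3, the percent of counts in the acinar list, the percent in Ins1 and Ins2, and the TMM scaling factor, each from 0. Control replicate 1 has the highest acinar share (42.4%) and the lowest factor (0.771).

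Of 17360 gene symbols with enough counts to test, 301 were called higher in IUGR islets and 397 lower at an adjusted p under 0.05 in edgeR's quasi-likelihood test. These are 1.73% and 2.29% of the symbols tested, and they are the background for the counts in the sections below. Groups that did not overlap were common, with all IUGR libraries above all controls for 3886 symbols (22.4%) and below them for 2914 (16.8%). Of the 301 higher symbols, 251 had their lowest control level in control replicate 1, the library richest in acinar RNA. The highest control level was there for 51 of the 53 symbols that fell by 4-fold or more. It was there too for 102 of the 111 that fell by 2-fold to 4-fold, and for 173 of the 233 that fell by less. The same shares were not counted over all symbols tested.

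How many symbols passed depended on single libraries. No symbol was called without IUGR replicate 1 or without IUGR replicate 3, 6 were called without IUGR replicate 2, 16 and 4 without control replicates 1 and 2, and 2001 without control replicate 3. None was called when the 6 libraries were fitted alone, or with the acinar level of each library as a covariate, although 5335 and 2308 symbols, respectively, then had an unadjusted p under 0.05, against 5062 in the fit reported. The acinar level, a mean log2 CPM, did not overlap between the groups, at 9.892 to 11.27 in controls and 7.349 to 8.385 in IUGR islets. Estimates with the covariate thus rest on a slope fitted over all 12 libraries and carried across this gap. Whether such an estimate holds or shrinks cannot tell an IUGR effect from an effect of the acinar level. DESeq2 called 1545 higher and 1210 lower. All 698 called symbols kept their direction under each of these settings in which they had a value (697 of them in the fit of 6 libraries), and 415 of them had an unadjusted p under 0.05 with the covariate. These settings refit the counts, or a part of them, that chose the symbols, so kept directions are not independent support. When the acinar genes and the 20 most abundant transcripts were left out before scaling, 419 symbols were called higher and 362 lower, and the median log2 fold change of all symbols moved from 0.05 to 0.07. These limits hold for each gene that is said to have risen or fallen below.

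Genes of actin filaments and of the proteins that contract, cut and anchor them were higher in IUGR islets, with more calls than any other list of a function. Of 40 genes tested in a list of actins, myosins and tropomyosins, 13 rose and none fell, and in 30 all IUGR libraries lay above all controls. The list had a median log2 fold change of 0.55, against 0.05 for all symbols, and of 0.24 with the acinar covariate. The 13 were the tropomyosins Tpm1, Tpm2 and Tpm4, the myosin light chains Myl9, Myl12a and Myl6l, the filament-severing cofilins Cfl1 and Cfl2, profilin 2 (Pfn2), which feeds actin monomers to growing ends, the actins Actg2 and Acta1, vinculin (Vcl), which anchors filaments at adhesions, and filamin A (Flna), which crosslinks them.

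Tpm1, which lies along actin filaments, stood at 140, 157 and 161 scaled CPM in control replicates 1 to 3 and at 310, 271 and 240 in the IUGR replicates. All IUGR libraries were higher, with a log2 fold change of 0.84 ± 0.13 (standard error, SE, here and below, n = 3 per group) and an adjusted p of 0.0225. Myl9, the regulatory light chain of smooth muscle myosin, was at 129, 173 and 169 in controls and at 357, 305 and 266 in IUGR islets (0.98 ± 0.23, adjusted p = 0.0479). Actg2, an actin of smooth muscle, was at 32.7, 27.5 and 28.3 against 95.2, 63.6 and 76.0, and its log2 fold change of 1.41 ± 0.30 (adjusted p = 0.0431) was among the larger ones of the list. Flna was at 636, 843 and 786 against 1507, 1457 and 1122 (0.85 ± 0.21, adjusted p = 0.0492). Groups did not overlap for any of these genes. Reads of Actg2 and Acta1 could be shared with near-identical actins, and Myl6l is a RefSeq synonym of Myl6, so the split within each family is uncertain. The cytoplasmic actins Actb (0.55 ± 0.18, adjusted p = 0.0877) and Actg1 (0.68 ± 0.18, adjusted p = 0.0570) did not pass.

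The Arp2/3 complex, which starts branches on actin filaments, was looked at after these values had been seen. Of its 9 subunit genes tested, 5 rose (Actr2, Actr3, Arpc3, Arpc4 and Arpc5) and none fell, with a median of 0.43. Arpc4 was at 28.1, 34.3 and 34.8 scaled CPM in controls and at 48.4, 47.2 and 45.9 in IUGR islets, a log2 fold change of 0.54 ± 0.10 (adjusted p = 0.0344). Tagln2, an actin-binding protein of many cell types, rose by 0.60 ± 0.10 (adjusted p = 0.0288). With the acinar covariate, the estimate for Tagln2 was 0.46.

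Markers of other islet-associated cells moved in the same direction. In the list of smooth muscle and pericyte markers, 6 of 17 rose and none fell (median 0.85, and 0.38 with the covariate), among them calponin 1 (Cnn1, 1.09 ± 0.25, adjusted p = 0.0479) and the myosin kinase Mylk (0.75 ± 0.18, adjusted p = 0.0479). Actg2 and Myl9, already counted with the actin genes, are also among these 6. The summed level of that list ran from 1222 to 1634 scaled CPM in controls and from 2257 to 3269 in IUGR islets. Fibroblast and stellate cell markers summed to 5039 to 8836 against 10447 to 12078, with 2 of 21 risen (Fbln1 and Thy1). Endothelial markers summed to 700.5 to 1132 against 1235 to 1460, with 1 of 20 risen (Ramp2). Only markers with enough counts were tested, so none in these 3 lists could be at 0 in all libraries. The part of these cells in the changes of actin genes was not tested.

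Several actin genes are classic targets of serum response factor, which binds the CArG box. That motif was searched in windows of 300 bases, 250 before and 50 after the annotated start, from the RefSeq table of the build GRCr8. It was found in 3 of the 33 list members that have an entry (9.09%), Acta1, Actg1 and Actc1, and in 1.64% of all 33469 windows. A member counted if any of its windows held the motif, while the second share is of single windows, so these shares are unlike measures. Of the 13 genes that rose, 11 had an entry and 1, Acta1, held the motif. The stretches before the start of Acta1 (chr19:68784254-68784313, minus strand) and Actg1 (chr10:106121007-106121066, minus strand) are shown because they hold the motif, in capitals, at a like place, its first base 94 and 90 bases before the start.
Acta1: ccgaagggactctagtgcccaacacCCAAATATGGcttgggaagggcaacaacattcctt
Actg1: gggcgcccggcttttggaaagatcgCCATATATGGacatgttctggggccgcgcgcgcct
Acta1, the skeletal muscle actin, was at 2.17, 1.94 and 2.73 scaled CPM in controls and at 6.42, 4.28 and 3.86 in IUGR islets (1.09 ± 0.26, adjusted p = 0.0479). Actc1, the cardiac actin, was low in all libraries (0.03 ± 0.34, adjusted p = 0.966). The match is a description of these letters and says nothing about binding.

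Microtubule genes were called higher as well. Of 51 tubulins, kinesins and other microtubule proteins tested, 8 rose and none fell (median 0.41, and 0.16 with the covariate): the tubulins Tuba1a, Tubb2a, Tubb3 and Tubb4b, the motor subunits Kif5a and Dync1i1, the tubulin-binding stathmin Stmn2, and Mapre1, which tracks growing ends. Tubb3, a tubulin typical of neurons, was at 7.18, 9.76 and 12.4 scaled CPM in controls and at 21.6, 19.7 and 22.1 in IUGR islets (1.11 ± 0.21, adjusted p = 0.0391). Tuba1a was at 457, 452 and 460 against 710, 684 and 711 (0.62 ± 0.14, adjusted p = 0.0458). Both sets of libraries were well apart. Dynll1, a light chain of dynein outside the list that the rule on smallest p named, rose by 0.68 ± 0.10 (adjusted p = 0.0223).

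Some of these are genes of nerve cells, and 4 of 20 neuron markers rose (Tubb3, Stmn2, Nefm and Th) with a list median of 0.94, and 0.39 with the covariate. Th, which makes the precursor of dopamine and noradrenaline, was scarce, at 0.0859, 0.0587 and 0.177 scaled CPM in controls against 0.439, 0.574 and 0.434. Epha5, an ephrin receptor that beta cells and neurons share, had the smallest p among the higher genes named by the rule, at 0.572, 0.665 and 0.843 in controls against 2.17, 1.46 and 2.04 in IUGR islets (1.43 ± 0.21, adjusted p = 0.0223). Mapk10, a stress kinase best known from neurons, rose by 1.05 ± 0.16 (adjusted p = 0.0225). Of 36 SNARE and exocytosis genes, Syt11, Vamp3 and Cplx1 rose and none fell.

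**Figure D2:**
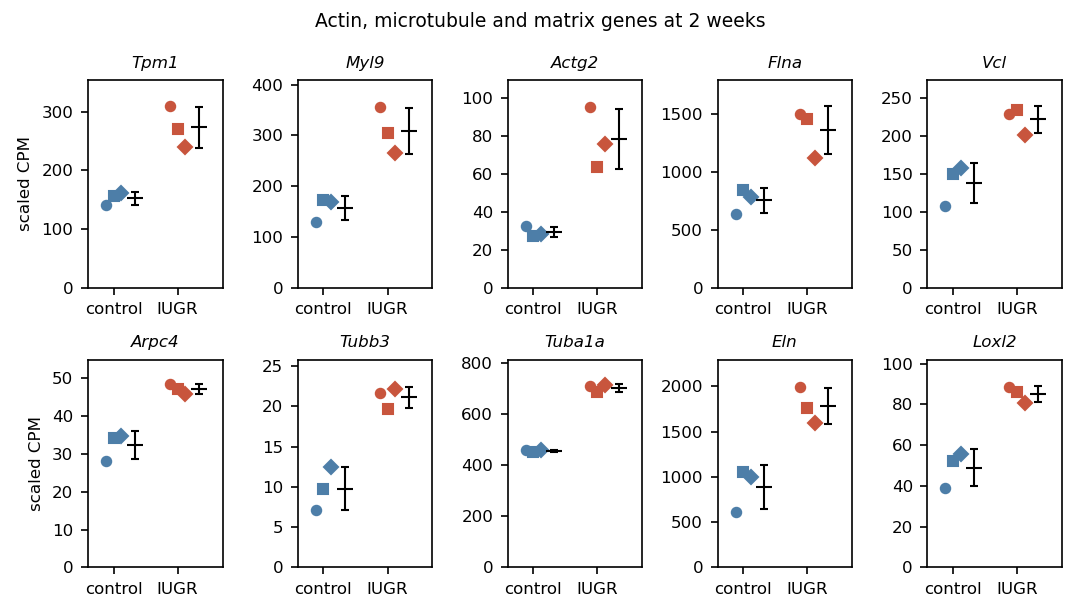
Points are scaled CPM of the 3 control and 3 IUGR libraries for 10 genes of actin, microtubules and matrix (circle, square and diamond are replicates 1, 2 and 3), with the mean and SD beside them and axes from 0. In all 10 panels the IUGR libraries lie above the controls.

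Extracellular matrix genes were called higher in several lists. Of 24 genes of collagen processing and crosslinking, 5 rose and none fell, and in 19 the IUGR libraries lay above all controls (median 0.52, and 0.20 with the covariate). They were the crosslinking oxidase Loxl2, the galactosyltransferase Colgalt1 and the prolyl hydroxylases P4ha1, P4ha2 and Lepre1. Loxl2 was at 38.9, 52.3 and 55.8 scaled CPM in controls and at 88.6, 86.2 and 80.9 in IUGR islets (0.80 ± 0.13, adjusted p = 0.0288). Of 44 collagens 1 was called higher (Col8a1) and 1 lower (Col6a4), while the summed level of the list did not overlap, at 6720 to 11227 scaled CPM in controls and 13371 to 15100 in IUGR islets (median 0.39, and -0.02 with the covariate). Among 48 proteoglycans and matrix glycoproteins, Eln, Vcan and Thbs3 rose and none fell, and in 26 the IUGR libraries lay above all controls (median 0.55, and 0.08 with the covariate). Eln, elastin of vessel walls, was at 613, 1055 and 1001 against 1996, 1762 and 1591 (1.0 ± 0.23, adjusted p = 0.0458). Itgb1, the beta chain shared by most matrix receptors, rose by 0.51 ± 0.11 (adjusted p = 0.0431), the single call among 30 integrins. Cav1, which shapes caveolae in endothelial cells and adipocytes, rose by 0.89 ± 0.22 (adjusted p = 0.0498).

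Signals to vessels and growth factor binding proteins were among the higher genes. Apln, the peptide apelin, which acts on vessel cells, was at 3.29, 2.72 and 3.22 scaled CPM in controls and at 7.24, 7.71 and 10.4 in IUGR islets (1.46 ± 0.28, adjusted p = 0.0389). Agt, the precursor of angiotensin, was at 5.35, 7.10 and 9.32 against 21.9, 16.1 and 14.6 (1.27 ± 0.22, adjusted p = 0.0308). Igfbp4, which binds insulin-like growth factors, was at 98.3, 149 and 145 against 259, 260 and 223 (0.92 ± 0.17, adjusted p = 0.0344), and Igfbp7 rose by 0.53 ± 0.13 (adjusted p = 0.0488). None of these genes overlapped between groups. With the covariate their estimates were 1.27, 1.25, 0.98 and 0.48. Igfbp4 and Igfbp7 were the 2 higher calls among 41 IGF and insulin signalling genes, of which 1 fell. Among 23 VEGF, angiopoietin and apelin genes Apln was the single call, and Vegfa itself did not pass (-0.19 ± 0.12, adjusted p = 0.318). In the hypoxia list 3 of 28 rose, the regulator Hif1a and the hydroxylases P4ha1 and P4ha2, and none fell. Of 53 Wnt pathway genes Dkk3, Ror1 and Fzd1 rose and Rnf43 fell, and of 21 Notch genes the ligand Dll1 rose. The covariate moved Dkk3 from 0.99 to 0.86, Ror1 from 0.54 to 0.42 and Fzd1 from 0.54 to 0.18. It moved Rnf43 from -1.18 to -0.48 and Dll1 from 0.61 to 0.30.

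Glycolysis genes were called higher above the background share, and single genes of lipid synthesis were called in both directions. Of 26 glycolysis genes, 4 rose (Aldoa, Pgam1, Tpi1 and Gpi) and none fell (median 0.33, and 0.19 with the covariate). In the lipid lists, Gpd1 rose and Lpin3 fell of 21 glycerol and triglyceride genes, Scd1 and Acsl1 rose and Mlxipl fell of 22 fatty acid synthesis genes, and Msmo1 rose of 26 cholesterol genes, with medians of 0.10, 0.15 and 0.20. Hsd17b12, in none of these lists, which acts in the lengthening of fatty acids, was at 15.4, 14.7 and 17 scaled CPM in controls and at 23.1, 22.8 and 24.8 in IUGR islets (0.58 ± 0.09, adjusted p = 0.0223, and 0.58 with the covariate). Gpd1, which makes glycerol 3-phosphate for lipid, was at 5.67, 10.0 and 19.4 against 46.0, 39.2 and 45.0. The desaturase Scd1 was at 12, 11.7 and 20.2 against 68.1, 30.5 and 43.2. Acsl1, which activates fatty acids, rose by 0.86 ± 0.21 (adjusted p = 0.0488), while Mlxipl, the glucose-responsive factor ChREBP, fell from 16.8, 18 and 21 to 11, 11.6 and 11.4 (-0.71 ± 0.16, adjusted p = 0.0479, and -1.06 with the covariate). Lpin3, a phosphatidate phosphatase, also fell (-0.89 ± 0.12, adjusted p = 0.0132). Adipocyte markers moved with these genes, since their summed level was 218.8 to 459.7 in controls and 605.1 to 703.8 in IUGR islets, with a median of 1.13, 13 of 17 apart and none called, and their part was not tested.

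Few mitochondrial genes were called. Of 80 nuclear genes of the respiratory chain, Cycs, which encodes cytochrome c, rose (0.53 ± 0.11, adjusted p = 0.0431) and none fell, a share below the background, and the list median of 0.06 was close to that of all symbols. None of 76 mitochondrial ribosomal protein genes was called in edgeR's test (median -0.07). Among 14 genes of the mitochondrial genome, Mt-nd4 and Mt-nd4l, both of complex I, fell and none rose (list median -0.27, and -0.45 with the covariate). Mt-nd4 was at 160, 132 and 94.6 scaled CPM in controls and at 67.3, 84.4 and 64.3 in IUGR islets, without overlap (-0.84 ± 0.20, adjusted p = 0.0488). Idh3a was the single call among 32 citric acid cycle genes (0.38). Of 32 antioxidant, glutathione and metallothionein genes, Prdx2, Gpx7 and Gpx8 rose, by log2 fold changes of 0.40 to 0.67, and none fell. The summed level of that list was lower in IUGR islets without overlap, at 1096 to 1175 scaled CPM against 1308 to 1613 in controls, and its Prdx4, a peroxiredoxin of the endoplasmic reticulum, stood at -1.92, and at 0.12 with the covariate.

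Genes of amino acid and one-carbon metabolism were called lower more than any other metabolic group. Of 36 tested, 7 fell and 1 rose, and in 22 the IUGR libraries lay below all controls (median -0.56, but -0.04 with the covariate). Ahcy, which clears S-adenosylhomocysteine, was at 93.6, 60.2 and 37.8 scaled CPM in controls and at 19.1, 16.4 and 21.1 in IUGR islets (-1.76 ± 0.30, adjusted p = 0.0290, and -0.86 with the covariate). Bhmt, which methylates homocysteine, was at 2.15, 1.10 and 0.902 against 0.283, 0.310 and 0.568 (-1.82 ± 0.37, adjusted p = 0.0431). Gnmt, Aldh1l1 and Cbs, of the methionine and folate cycles, had log2 fold changes of -2.63, -2.54 and -2.34 and passed, and their estimates with the covariate were -0.28, -0.11 and -0.08. The other decreases were those of Gpt2 and Pycr1, and the increase was that of Oat, an ornithine aminotransferase (0.55 ± 0.12, adjusted p = 0.0452). Mtr, methionine synthase, outside the list and chosen after its value was seen, fell by 0.83 (adjusted p = 0.0244), and by 0.65 with the covariate.

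The genes with the smallest p of the whole comparison were lower ones. For the 15 that the rule named, log2 fold changes ran from -1.31 to -0.52, and from -1.15 (Rgs11) to -0.57 (Lpin3) with the acinar covariate. Rgs11, a regulator of G protein signalling, was at 45.0, 31.6 and 36.9 scaled CPM in controls and at 16.1, 15 and 14.6 in IUGR islets (-1.31 ± 0.13, adjusted p = 0.00833, and -1.15 with the covariate). Zfp692, a zinc finger protein, was at 19.6, 16.8 and 16.2 against 9.58, 9.23 and 9.75 (-0.88 ± 0.09, adjusted p = 0.00833). The lysosomal iduronidase gene Idua was at 34.7, 39.2 and 33.6 against 20.3, 21.5 and 21.2 (-0.77 ± 0.08, adjusted p = 0.00838). The 3 IUGR libraries were tightly grouped and below every control for each of these. The motor gene Kifc2 (-1.18), the adaptor gene Ap1g2 (-1.0), Ccdc30 (-0.89), Lime1 (-0.68), the nuclease gene Eme2 (-0.64) and Irf3 (-0.52), a factor of the interferon response, were the others of that kind named by the rule.

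Some of the smallest p belonged to single genes of nuclear RNA handling. Snrnp70, a protein of the U1 particle that finds 5′ splice sites, was at 92.0, 92.2 and 88.0 scaled CPM in controls and at 53.6, 57.3 and 55.4 in IUGR islets (-0.71 ± 0.09, adjusted p = 0.0112, and -0.81 with the covariate). Ccnl2, a cyclin found with splicing factors, was at 82.0, 76.8 and 77.7 against 50.5, 51.5 and 51.1 (-0.63 ± 0.08, adjusted p = 0.0112). Pnisr, a protein rich in serine and arginine, was at 105, 103 and 107 against 70.8, 72.1 and 69.4 (-0.57 ± 0.07, adjusted p = 0.0122). For these 3 genes all IUGR libraries lay below all controls. Pan2, which shortens poly(A) tails, fell by 0.91, and Akap8l, an anchoring protein of the nucleus, by 0.67 (both adjusted p = 0.0112).

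Luc7l3 and Srrm2, which the rule on highest mean log2 CPM named, fell too. So did Luc7l, Clk2 and Pnn, which belong to related families and were chosen after their values were seen. A set of 16 genes of these families, put together after values were seen, had 8 lower and none higher. It held Snrnp70, Ccnl2 and Pnisr as well, its median was -0.39, and 3 of its genes lay above 0. The list of 81 pre-mRNA splicing genes did not move in 1 direction, with Hnrnph2 higher, Esrp2 lower and a median of 0.02. Hnrnph2 stood at 0.34, and at 0.37 with the covariate, and Esrp2 at -1.41 and -0.49. Ogt, which adds a sugar to nuclear and cytosolic proteins, fell from 165, 132 and 118 to 85.3, 93.9 and 91.9 scaled CPM (-0.61 ± 0.11, adjusted p = 0.0344). Of 68 histone and DNA modifying enzymes, the deacetylases Hdac10 (-0.75, and -0.56 with the covariate) and Hdac11 (-1.21 and -0.46) fell and none rose.

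Single genes that tie growth to nutrients were also among the lower ones. Ulk1, the kinase that starts autophagy, was at 26.7, 21.5 and 17.1 scaled CPM in controls and at 11.2, 11.9 and 9.15 in IUGR islets (-1.02 ± 0.16, adjusted p = 0.0252, and -0.84 with the covariate). Tsc1, a brake on mTORC1, was at 12.5, 12.4 and 10.9 against 7.57, 8.72 and 7.33 (-0.60 ± 0.10, adjusted p = 0.0290). Ulk3, and Nprl3 and Wdr59 of the GATOR complexes, were also chosen after their values were seen, and fell too. Atg13 of the ULK complex, a member of the autophagy list, fell as well (-0.62, and -0.31 with the covariate). A set of ULK, TSC and GATOR genes was put together after values were seen. Of its 16 genes tested, 6 fell and none rose, Ulk1, Tsc1 and Atg13 included. Eif4ebp2, which holds back translation, and Eif2ak4, the amino acid sensor GCN2, fell (-0.79 and -0.66), and with Eif5b (-0.68) they were the 3 calls among 60 translation factors. Their estimates with the covariate were -0.66 for Eif4ebp2, -0.53 for Eif2ak4 and -0.26 for Eif5b. In the autophagy list 2 of 36 fell, Ulk1 and Atg13, and 1, Map1lc3a, rose, with a median of -0.05. Of 41 IGF and insulin signalling genes, Tsc1 fell, Igfbp4 and Igfbp7 rose, and the median was 0.07. Neither list moved in 1 direction.

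**Figure D3:**
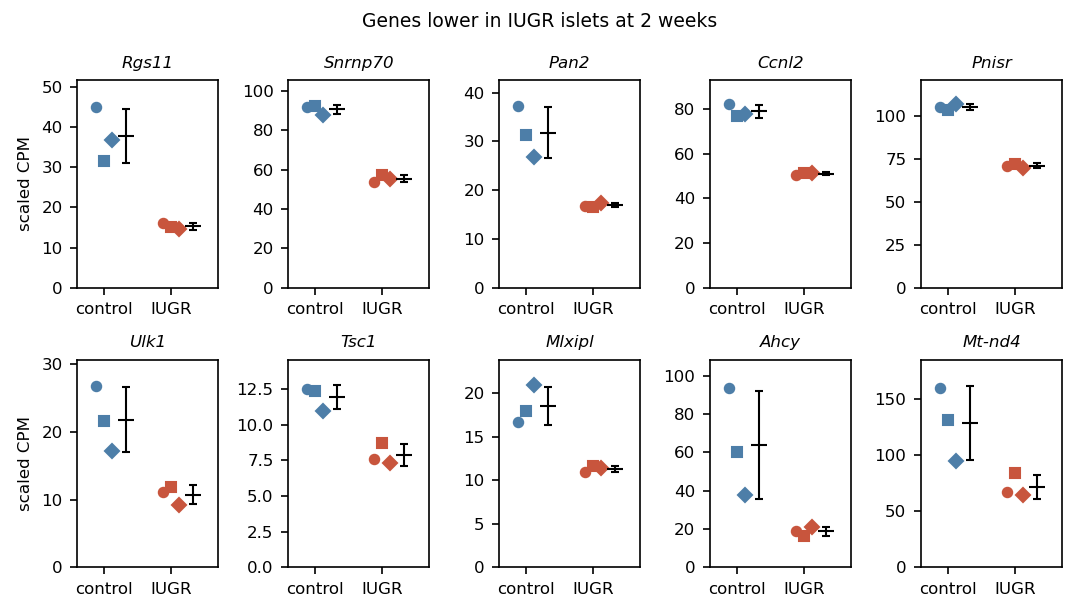
Points are scaled CPM of the 3 control and 3 IUGR libraries for 10 genes that fell (circle, square and diamond are replicates 1, 2 and 3), with the mean and SD beside them and axes from 0. Snrnp70 and Pnisr vary little within a group, while Ahcy is highest in control replicate 1 (93.6).

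Ribosomal protein genes were called no more often than the background. Among 88 cytosolic ribosomal protein genes, 83 had a log2 fold change below 0 and in 49 the groups were apart, with a median of -0.27, and the single call was the copy Rpl5l1, lower, whose reads may belong to Rpl5. The median was 0.06 with the covariate. Proteasome genes went the other way, with 42 of 48 above 0, 20 apart and a median of 0.15, and none was called at an adjusted p under 0.05 in edgeR's test. In the unfolded protein response list, Nupr1, a stress-induced nuclear protein, and Ern1, which senses unfolded proteins, fell and none of 21 rose (Nupr1 -1.93 ± 0.41, Ern1 -0.56 ± 0.13). With the covariate these 2 genes stood at -0.91 and -0.37, and the list median moved from -0.41 to 0.09. Of 43 genes of COPII and COPI coats and their cargo receptors, Sec23a and Tmed5 rose and none fell.

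Channels, transporters and junctions were called in both directions. Kcna2, a voltage-gated potassium channel, was at 16.3, 7.92 and 5.96 scaled CPM in controls and at 3.00, 2.34 and 3.66 in IUGR islets (-1.74 ± 0.36, adjusted p = 0.0431, and -1.63 with the covariate). Kcnj4 (-2.65, and -1.06 with the covariate) and Kcne1 (-2.77 and -0.18) fell too, while Kcnma1, a calcium-activated potassium channel, rose by 0.59 ± 0.13 (adjusted p = 0.0458), and the other 73 of 77 potassium channel genes did not pass. Car12, a carbonic anhydrase, was at 21.2, 10.7 and 8.98 against 2.30, 1.40 and 1.82 (-2.88 ± 0.52, adjusted p = 0.0344, and -0.84 with the covariate), and Slc4a8 (-1.32, and -0.57 with the covariate), Aqp4 (-2.05 and -1.14) and Aqp8 (-2.98 and -0.29) were the other decreases among 32 genes of water and bicarbonate transport. The tight junction genes Tjp3 and Marveld2 and the desmosome gene Pkp3 stood at -0.88, -0.61 and -0.87 and passed, and in the list of 69 junction genes the cadherin Cdh6 rose. The covariate brought Tjp3 to -0.46, Marveld2 to -0.39 and Pkp3 to -0.37, and Cdh6 from 0.87 to 0.47.

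No beta cell gene was called at this age, of 15 markers and of 25 transcription factors, and 1 of 14 alpha, delta and PP cell markers was. Ppy, the pancreatic polypeptide gene, rose from 168, 127 and 285 scaled CPM to 489, 499 and 463. Gcg was at 11999, 11356 and 25221 against 33716, 18597 and 25264, and Sst at 138, 196 and 258 against 345, 223 and 280, so that both overlapped (adjusted p = 0.345 and 0.184). Mafa, a transcription factor of mature beta cells, had a log2 fold change of 0.38 ± 0.23 and did not pass. Among 22 imprinted genes Rtl1 and Mest rose, and Igf2 and Cdkn1c did not pass. All 16 granule and prohormone processing genes lay above 0 with a median of 0.38, and none was called. Immediate-early genes, which tissue handling can induce, had no call in edgeR's test, but 30 of 31 lay above 0 and 17 were apart, with a median of 0.83, and 0.17 with the covariate. Their summed level ran from 1213 to 2451 scaled CPM in controls and from 2666 to 3659 in IUGR islets, and their part in the other changes was not tested. Chemokine, interleukin and receptor genes had 86 of 111 above 0, 37 apart higher, a median of 0.50 and no call. All 16 macrophage markers lay above 0 with a median of 0.64, and none was called. No gene was called among 42 of DNA replication (median 0.02), 46 of mitosis (0.14), 18 T and NK cell (0.56) and 12 B cell markers (0.09).

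Acinar genes had the largest decreases, with 5 of 37 called, 36 apart and a median of -2.63. With the covariate the median was 0.08, near 0 by construction, because the covariate is the mean level of this same list. Pnlip, pancreatic lipase, was at 7266, 2804 and 3157 scaled CPM in controls and at 457, 291 and 500 in IUGR islets. The single call among 85 miRNA genes was also lower. Mir217, a miRNA gene known from acinar cells, had 29, 17 and 11 raw counts in controls and 2, 1 and 0 in IUGR islets, a ratio of scaled rates of 0.0370 (exact 95% interval 0.00742 to 0.114, counting error only). The neighbouring Mir216a had 10, 8 and 11 against 2, 4 and 1 counts, a ratio of 0.170 (0.0628 to 0.396), and Mir216b 5, 1 and 3 against 1, 1 and 0, a ratio of 0.156 (0.0164 to 0.755). The last pair had too few counts to be tested. A count over a hairpin in a library of long RNA is not the level of the mature miRNA.

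The mature forms are shown because the 3 hairpins lie within 18564 bases of each other on the plus strand (Mir217 at chr14:106732485-106732589, Mir216a at chr14:106725077-106725182 and Mir216b at chr14:106714026-106714127, RefSeq, GRCr8). The seed, bases 2 to 8, is in capitals.
rno-miR-217-5p: uACUGCAUcaggaacugacugg
rno-miR-217-3p: aUCAGUUCcuaaugcauugccu
rno-miR-216a-5p: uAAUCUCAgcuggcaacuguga
rno-miR-216b-5p: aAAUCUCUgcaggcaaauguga

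**Figure D4:**
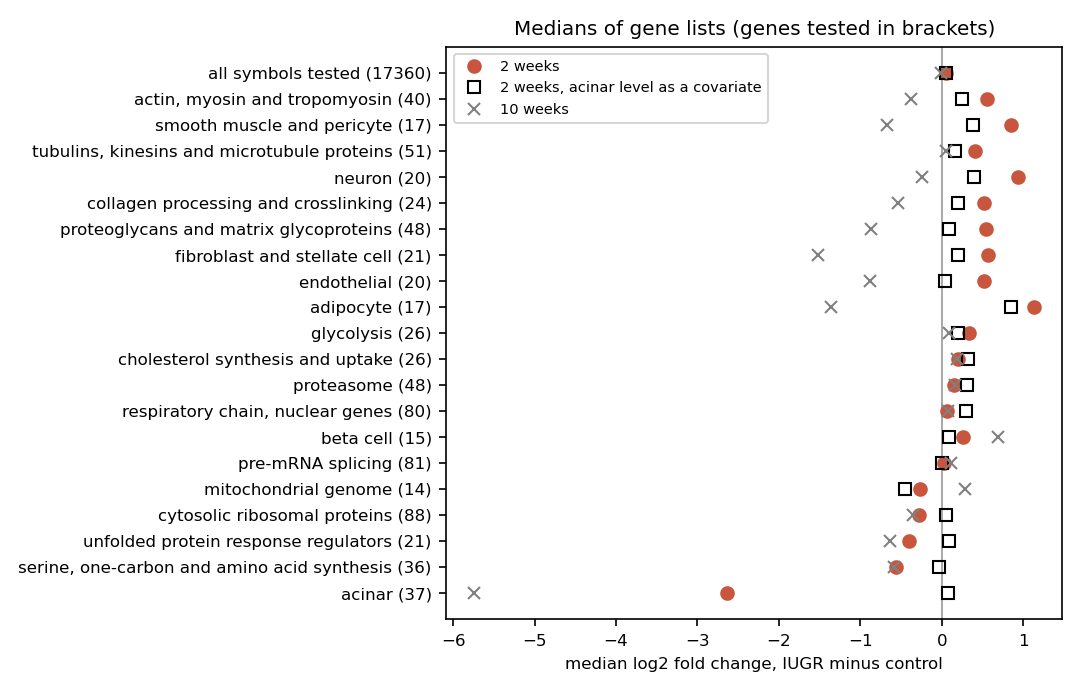
Median log2 fold change, IUGR minus control, of gene lists at 2 weeks (filled circles), at 2 weeks with the acinar level as a covariate (open squares) and at 10 weeks (crosses), with the number of genes tested in brackets. The acinar median lies at -2.63 without and at 0.08 with the covariate. The covariate is the mean level of the acinar list and so brings that list near 0 by construction. The actin list lies at 0.55 and 0.24.

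At 10 weeks the same comparison stood elsewhere for many of these genes, in libraries that it does not share with the comparison at 2 weeks. The IUGR effect differed between the ages for 2476 of 17360 symbols (14.3%) by a test of the difference itself. Of the 13 actin, myosin and tropomyosin genes that rose at 2 weeks, 10 had such a difference and lay below 0 at 10 weeks, while Pfn2 (0.79), Cfl1 (0.08) and Acta1 (0.31) lay above 0 with no difference called. Tpm1 stood at -0.67 at 10 weeks, Myl9 at -0.95 and Flna at -0.82. Snrnp70 and Ccnl2, lower at 2 weeks, stood at 0.18 and 0.13, and Rgs11 at 0.48. Acinar genes had a median of -5.74 at 10 weeks, when their share was 14% to 47.6% in controls and 0.626% to 2.33% in IUGR islets. Among the 233 symbols that fell at 2 weeks by less than 2-fold, 130 lay above 0 at 10 weeks, and among the 53 that fell by 4-fold or more, 52 lay below 0. Epha5 had a log2 fold change of 1.43 at both ages. At 2 and 10 weeks Cycs stood at 0.53 and 0.50, Kcnma1 at 0.59 and 0.64 and Ppy at 1.32 and 1.48, with no difference called for these 4.

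**Figure D5:**
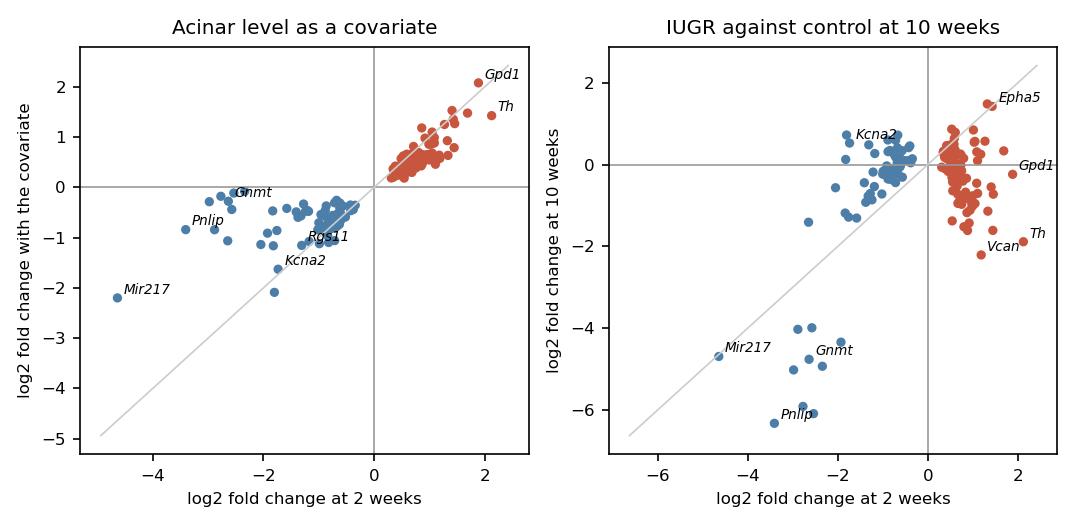
Each point is a gene named here that passed at 2 weeks, higher in red and lower in blue, with its log2 fold change at 2 weeks on the horizontal axis and, on the vertical axis, that with the acinar level as a covariate (left) or at 10 weeks (right); the grey line marks equal values. With the covariate Pnlip and Gnmt lie far above that line, while Rgs11 and Kcna2 stay near it. The acinar level did not overlap between the groups, so these places cannot tell an IUGR effect from an acinar one.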

How the data were processed

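RNA was measured in rat pancreatic islets. Libraries were stranded, from total RNA with rRNA removed and an integrity number over 7, per the labels' protocols. Tools and builds named per the submitters' processing notes are bedtools, TopHat2 2.0.9, mm9 and rn5. How reads were counted, with which strand setting and annotation, is not given in the sources used here, so reads of overlapping, antisense or near-identical genes may be shared. The authors deposited raw counts, whole numbers for each of 30309 transcripts under 25888 symbols, with no normalization. Each library's group came from the labels.

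The deposited counts went into edgeR 4.0.16 (R 4.3.3) with filterByExpr by group and TMM factors. All 12 libraries in 4 groups were fitted together, and quasi-likelihood F tests with robust dispersions were run. Over the 20733 transcripts tested, p was adjusted by Benjamini-Hochberg, and under 0.05 was called. For each symbol the transcript with the highest mean count over the 12 libraries was reported, which left 17360 symbols. The standard error is the size of the log2 fold change divided by the root of F. Totals at 2 weeks ran from 44.0 to 51.2 M counts, and intervals on single counts cover counting error only.

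Genes to name were taken by rule: up to 15 symbols a direction with the smallest p, called, not overlapping, above a mean log2 CPM of 1 and without a locus name, up to 10 called symbols a direction with the highest mean log2 CPM, 4 members of each list by smallest p, and fixed islet genes, of which the text gives a part. Other called members of a list are named to complete its count. The members, lists and rules were chosen with earlier results of these data known. Lists are described by counts and medians, with no set test. No libraries were duplicates. Some genes are not reported here.

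Other settings tried were DESeq2 1.42.0, RLE factors, all transcripts without the filter, a threshold of 0.1, a replicate block, each library's mean acinar log2 CPM as a covariate, leaving out the acinar list with the 20 most abundant transcripts, the 6 libraries alone, 1 transcript per symbol, and each library left out. The steps were tested on simulated counts. Sequences came from RefSeq tables of GRCr8, matched by symbol.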

Additional observations from a re-analysis of the deposited data

Results flagged for a closer look

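The IUGR effect differed between 2 and 10 weeks for 2476 symbols by edgeR's test of that difference. Of the 157 genes named in the text as called at 2 weeks, 84 were among them (adjusted p from 0.00166 to 0.0483, n = 3 per group), and 71 of these had log2 fold changes of opposite sign at the 2 ages. The value given below is the log2 fold change at 2 weeks minus that at 10 weeks. Among actin, myosin and smooth muscle genes, it was 1.51 for Tpm1, 2.00 for Tpm2, 0.90 for Tpm4, 1.92 for Myl9, 1.17 for Myl12a, 1.08 for Myl6l, 0.75 for Cfl2, 1.95 for Actg2, 1.67 for Flna, 0.99 for Vcl, 1.54 for Cnn1, 1.72 for Mylk, 0.58 for Arpc4 and 1.62 for Cryab. For microtubule, filament and neuron genes it came to 0.79 for Tuba1a, 1.18 for Tubb2a, 1.01 for Tubb3, 0.68 for Dynll1, 3.05 for Kif5a, 4.01 for Th, 2.47 for Cplx1, 1.20 for Lmna and 1.65 for Nes. In matrix, adhesion and vessel genes it was 1.76 for Eln, 3.39 for Vcan, 1.60 for Thbs3, 0.64 for Loxl2, 0.63 for Colgalt1, 0.76 for Col8a1, 2.49 for Cav1, 2.18 for Apln, 2.32 for Fbln1, 1.81 for Thy1, 1.02 for Ramp2, 2.04 for Cdh6, 2.05 for Mmp17 and 0.90 for Serpine2. Signalling and imprinted genes had 2.35 for Igfbp4, 2.01 for Dkk3, 1.92 for Fzd1 and 1.0 for Mest. Metabolic and other higher genes gave 2.12 for Gpd1, 1.35 for Scd1, 1.19 for Acsl1, 0.37 for Gpi, 0.88 for Gpx7, 1.38 for Gpx8, 0.98 for Oat, 0.85 for Map1lc3a and 0.48 for Tmed5. For the lower genes of RNA handling and of the nucleus it was -0.89 for Snrnp70, -0.76 for Ccnl2, -0.91 for Pnisr, -0.84 for Pnn, -0.49 for Luc7l, -0.86 for Luc7l3, -0.42 for Clk2, -0.88 for Pan2, -1.08 for Akap8l, -1.20 for Zfp692, -0.77 for Ogt, -0.53 for Hdac10, -0.62 for Irf3 and -0.68 for Eme2. Lower genes of nutrient sensing and metabolism were at -0.60 for Tsc1, -1.01 for Ulk3, -0.71 for Atg13, -0.53 for Wdr59, -1.31 for Mlxipl, -0.77 for Lpin3, -1.95 for Bhmt, -1.19 for Mt-nd4 and -1.39 for Mt-nd4l. The other lower genes had -1.79 for Rgs11, -0.65 for Idua, -1.45 for Kifc2, -1.49 for Ccdc30, -0.77 for Ap1g2, -0.72 for Lime1, -2.26 for Kcna2, -2.53 for Col6a4 and -0.83 for Adamts6. Aldh1l1 and Nupr1, with estimates further below 0 at 10 weeks, had 3.55 and 2.41.

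The acinar share also differed between the groups at both ages, and its part in these differences was not tested. No group had 4 or more libraries, so no library was examined for standing apart from its group by a gap test.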

How the results depend on the processing

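The numbers called higher and lower, 301 and 397, became 1545 and 1210 with DESeq2, 52 and 77 without a filter on low counts, 1293 and 1292 at an adjusted p under 0.1, and 0 and 0 with the acinar covariate and in the fit of 6 libraries. Leaving out 1 library of 2 weeks gave 0 to 991 higher and 0 to 1010 lower. With the replicate block 511 were called higher and 531 lower. Deviations from the group mean had correlations of -0.13, 0.29 and -0.09 between libraries with the same number. Between libraries with different numbers they ran from -0.27 to 0.29. With 3 libraries a group, these values cannot decide whether the numbers pair the samples. The count for the difference between ages, 2476, became 3900 at an adjusted p under 0.1 and 3907 with the acinar covariate, and ran from 1473 to 2286 when 1 library was left out. RLE factors, 1 transcript per symbol, and leaving out acinar and abundant transcripts kept all 3 counts within 1.5 times.

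The acinar share, 22.2 percentage points higher in controls, was 8.59 points higher without its 5 most abundant genes, and 15.5 to 25.8 with 1 library left out. Actc1, not called at 0.03, turned to -0.79 with the covariate, to -0.012 in the fit of 6 libraries, and ran from -0.17 to 0.16 with 1 library left out, below 0 without control replicate 1 or IUGR replicate 1. Prdx4, not called at -1.92, turned to 0.12 with the covariate. No gene named as called changed direction in any alternative, but all alternatives refit the counts, or a part of them, that chose these genes. With 3 libraries a group, calls rest on the shared estimate of spread, and changes in RNA per cell cannot be told apart from changes in the mix of cells.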

Other observations

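Genes that move metals and amino acids across membranes were called in small numbers. Slc11a2, an importer of iron, was at 112, 60.3 and 51.6 scaled CPM in control replicates 1 to 3 and at 31.2, 29.0 and 32.4 in IUGR replicates 1 to 3 (log2 fold change -1.28 ± 0.31, SE, adjusted p = 0.0492 in edgeR's quasi-likelihood test, and -0.33 with the acinar covariate). The copper pump gene Atp7b and the zinc importer gene Slc39a5 fell (-1.58 and -2.57), with -0.42 and -0.44 under the covariate. Among 41 amino acid transporters Slc7a8 fell from 101, 68.2 and 57.9 to 43.0, 35.4 and 38.1 scaled CPM and Slc7a10 rose.

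Intermediate filaments added 3 higher genes of 29 tested, all with non-overlapping groups: Lmna, the nuclear lamin A gene (0.56 ± 0.11, adjusted p = 0.0423), Nefm of neurons and Nes, the nestin gene of progenitor and stromal cells. Among 43 matrix proteases and inhibitors Mmp17 and Serpine2 rose and Adamts6 fell. The chaperone gene Cryab, common in muscle, was the single call among 28 chaperonins and heat shock proteins (0.67 ± 0.15, adjusted p = 0.0450). Among 28 fatty acid oxidation genes Ehhadh of peroxisomes was the single call, lower by 1.24, and its estimate was -0.47 with the covariate. Of the 301 higher and 397 lower symbols, 217 and 346 were in none of the 82 lists, so the functions named describe a minority of the calls.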
